A study of Mus musculus with 8 samples.

Results

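The subunits of the 5 complexes of oxidative phosphorylation were followed in mouse liver mRNA. Genes were taken by symbol and not by any measured value. Protein coding genes were included whose symbols are those of NADH dehydrogenase (Nduf with a, b, c, s or v and a number), succinate dehydrogenase (Sdha to Sdhd), the cytochrome bc1 complex (Uqcr), cytochrome c oxidase (Cox4 to Cox8), ATP synthase (Atp5) or the protein coding genes of the mitochondrial genome. This gave 97 of the 38283 genes measured, 84 encoded in the nucleus and 13 by the mitochondrial genome. Complex I held 42 of them, complex II 4, complex III 9, complex IV 23 and complex V 19. Ndufa4 and Ndufa4l2 were placed in complex IV, where the NDUFA4 protein is found.

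All mice were males on a C57BL/6 background and carried loxP sites around exons 4 and 5 of Rora, the gene of the nuclear receptor RORα. The control mice were RORa f/f. The RORα LKO mice (Alb-cre;RORa f/f) also carried Cre recombinase driven by the albumin promoter, which acts in hepatocytes and leaves Rora in the other cells of the liver. Mice of both genotypes were given a control diet (CD) or a high-fat diet (HFD, with 60% of its calories from fat) for 10 weeks, starting at 8 weeks of age. Each library pooled the livers of 2 mice, and there were 2 libraries in each of the 4 groups, so that each p value measures the spread between pools. Polyadenylated RNA was sequenced and the authors deposited FPKM values, which divide the fragments of a gene by its length and by the mapped reads of the library. Read depth is unknown from these values.

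Oxidative phosphorylation passes electrons from NADH (complex I) and succinate (complex II) through ubiquinone, complex III and cytochrome c to oxygen (complex IV), and complexes I, III and IV pump protons whose return drives ATP synthesis by complex V. Complexes I, III, IV and V are built from subunits of both genomes, whereas complex II is encoded wholly in the nucleus. Nuclear subunit genes each have a promoter of their own, while the mitochondrial genes are read as long transcripts from both strands of a circular genome and are cut apart afterwards. Hepatocytes are rich in mitochondria, which also oxidise the fatty acids that the liver takes up.

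Facts of the whole series that touch these values are given first. The FPKM of Rora was 8.85 and 8.59 in the f/f CD libraries, 7.96 and 8.18 in the LKO CD libraries, 7.56 and 7.86 in the f/f HFD libraries and 7.30 and 8.02 in the LKO HFD libraries. It covers the whole gene, of which only exons 4 and 5 are removed, and the genotypes overlapped on HFD, so that LKO and f/f below refer to the labels of the libraries. Apart from these libraries, the study reports depleted RORα mRNA and protein in liver and primary hepatocytes of the LKO mice. Albumin (Alb) is listed at 0 in 4 libraries, f/f HFD replicate 2, LKO CD replicate 1 and both LKO HFD replicates, against 29902 to 30888 in the others. All 9 hepatocyte markers found were above 1 FPKM in some library, none of the lymphocyte, adipocyte and striated muscle markers was, and the summed FPKM of 8 stellate cell markers was 43.6 to 68.0 in the CD libraries and 78.2 to 107 in the HFD libraries. All 10 Kupffer cell and macrophage markers, all 8 endothelial markers and 2 of 6 cholangiocyte markers were also above 1 FPKM in some library. The summed Kupffer cell and macrophage markers were 117 to 137 (f/f CD), 82.9 to 102 (f/f HFD), 108 to 113 (LKO CD) and 106 to 142 (LKO HFD). The summed erythroid markers ranged from 65.8 to 228 in the f/f HFD libraries, from 85.9 to 420 in the f/f CD libraries, from 121 to 198 in the LKO HFD libraries and from 247 to 502 in the LKO CD libraries. The part of these cell types in the differences between diets and genotypes was not tested. In bulk RNA, fewer cells of a type and less RNA per cell cannot be told apart.

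The mitochondrial members were far more abundant than the nuclear members of the same complexes. Of the 97 genes, 91 had FPKM above 1 in at least 1 library, 78 of them nuclear, and 89 did so in every library. Across these 91, the median of the mean FPKM was 15097 for the 13 mitochondrial members and 105 for the 78 nuclear members. The 13 mitochondrial members took 24.9% to 38.2% of the summed FPKM of a library and the nuclear members 1.11% to 1.53%. Both lowest shares were in f/f CD replicate 2, where the gene ENSMUSG00000093077 alone held 183794 of a summed FPKM of 983738. Both highest shares were in LKO HFD replicate 1, where Alb is listed at 0. The ranges thus depend on these genes in the sum as well as on the members. Between 10 and 12 of the 13 were among the 20 most abundant genes of each library.

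Among nuclear subunits the level differed between complexes on the FPKM scale. The median was 65.1 for the 35 genes of complex I, 111 for the 4 of complex II, 156 for 8 of complex III, 230 for 14 of complex IV and 159 for 17 of complex V. Within complex I, the 7 nuclear genes of the catalytic core (the subunits that carry the flavin and the iron-sulfur clusters) had a median FPKM of 64.7 and a range of 39.8 to 99.7. The 28 accessory genes had nearly the same median, 67.0, with a wider range from Ndufa11 at 7.88 to Ndufa6 at 236. Complex II ran from the membrane anchor Sdhc at 77.0 to the flavin subunit Sdha at 209, and complex III from the Rieske iron-sulfur protein Uqcrfs1 at 113 to Uqcrh at 259. In complex V the catalytic β subunit of F1, Atp5b (chromosome 10 of GRCm38, 128083273 to 128090391, plus strand), had the highest nuclear level, 564, and Atp5s the lowest of its complex, 3.48. Complex IV ran from Ndufa4l2 at 1.15 to Cox4i1 at 437.

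**Figure D1:**
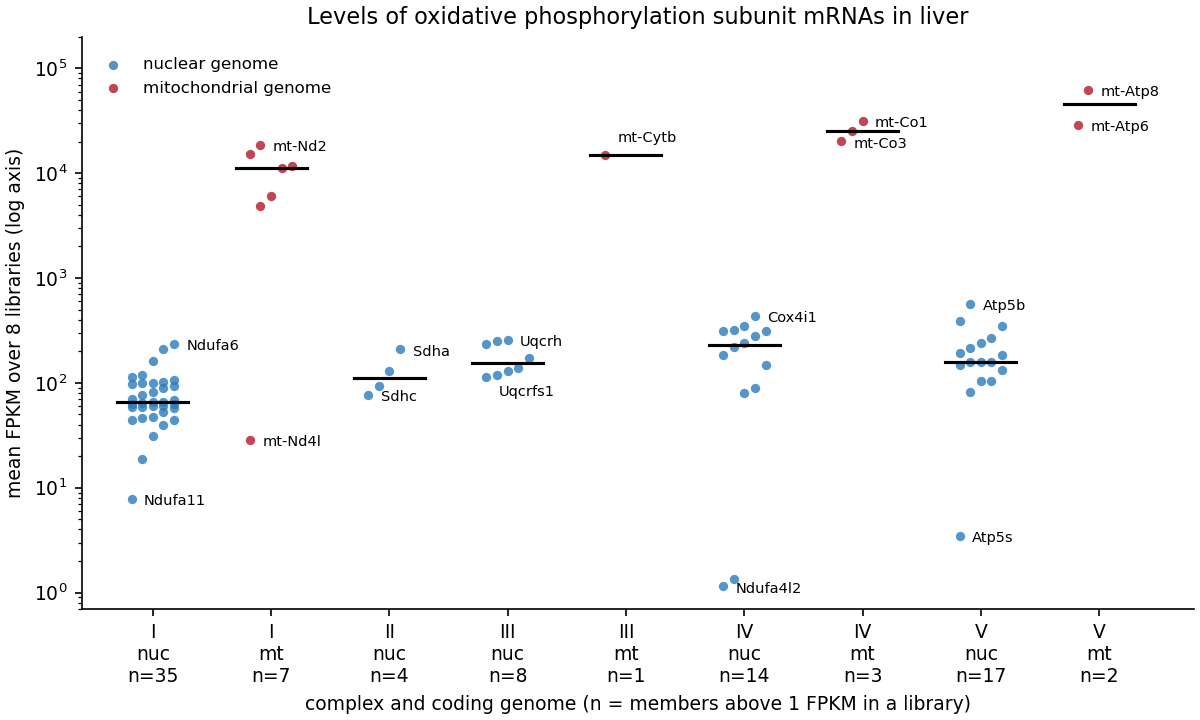
Mean FPKM over the 8 libraries (log axis) of the 91 members above 1 FPKM in at least 1 library, by complex and coding genome. Each point is a gene and each bar the median of its column, and all mitochondrial members but mt-Nd4l (28.5) lie above the highest nuclear member, Atp5b (564).

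Several subunits of complex IV have a second isoform that is used in muscle, testis or other tissues, and in these livers the ubiquitous or liver form carried nearly all of the mRNA. Cox4i1 had a mean FPKM of 437 and Cox4i2, an isoform known from lung, did not exceed 0.10 in any library. Cox6a1 and Cox6b1 both averaged 316, against highest values of 0.10 for the muscle isoform Cox6a2 and 0.55 for the testis isoform Cox6b2. Cox8a averaged 313, Cox8b did not exceed 0.36 and Cox8c was listed at 0 in all 8 libraries, as was Cox7b2, the paralog of Cox7b (149). These are 6 of the 97 members, none of which exceeded 1 FPKM in any library. The muscle isoform Cox7a1 was low but measurable at 0.351 to 2.48, beside 90.1 for Cox7a2 and 80.8 for Cox7a2l, which takes part in joining complexes III and IV. Ndufa4 averaged 351 and its paralog Ndufa4l2, known for its induction by low oxygen, 1.15.

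The nuclear members varied little between libraries. Over the 76 that were above 1 FPKM in every library, the highest value was a median of 1.17 times the lowest, and it was under 1.25 times the lowest for 63 genes and under 1.5 times for 74. The 2 others were Ndufc1 (2.12 times) and Atp5s (1.53 times). For the 13 mitochondrial members the same ratio had a median of 1.34.

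The mitochondrial genome is compact, and 4 pairs of its protein genes share bases, which bears on how fragments can be assigned. In GRCm38, mt-Atp8 (chrM:7766-7969) and mt-Atp6 (chrM:7927-8607) share 43 bases, mt-Atp6 and mt-Co3 share 1 base, mt-Nd4l (chrM:9877-10173) and mt-Nd4 (chrM:10167-11544) share 7 bases, and mt-Nd5 (chrM:11742-13565) and mt-Nd6 (chrM:13552-14070) share 14 bases. The first of these pairs and the pair of mt-Nd4l and mt-Nd4 are each known to stay on a single mRNA. Their mean FPKM still differed, at 62260 for mt-Atp8 against 28911 for mt-Atp6, and 28.5 for mt-Nd4l against 15097 for mt-Nd4. How fragments were assigned within these pairs was not tested. The FPKM and fold changes of mt-Atp8 and mt-Nd4l below therefore need not describe RNA levels. mt-Nd6 is the only member on the minus strand, and the library kit does not mark strand, so that fragments from mt-Nd6 and from the opposite strand cannot be told apart. The sequences of mt-Atp8 and mt-Nd4l are shown whole because these short genes hold the highest and the lowest mitochondrial values, and the last 80 bases of mt-Nd5 (chrM:13486-13565) because mt-Nd5 and mt-Nd6 are set against each other below. Capitals mark the bases shared with the next gene.
mt-Atp8: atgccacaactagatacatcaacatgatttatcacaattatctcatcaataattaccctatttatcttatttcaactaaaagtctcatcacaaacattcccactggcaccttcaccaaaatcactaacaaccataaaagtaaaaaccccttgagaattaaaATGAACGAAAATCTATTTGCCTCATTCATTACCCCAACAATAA
mt-Nd4l: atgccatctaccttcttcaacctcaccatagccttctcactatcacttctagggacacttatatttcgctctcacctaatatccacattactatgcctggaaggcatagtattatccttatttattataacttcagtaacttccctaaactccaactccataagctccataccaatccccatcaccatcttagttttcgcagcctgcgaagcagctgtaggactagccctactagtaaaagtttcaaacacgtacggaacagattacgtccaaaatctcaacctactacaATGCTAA
mt-Nd5: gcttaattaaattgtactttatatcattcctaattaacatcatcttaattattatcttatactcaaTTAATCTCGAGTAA
The 43 shared bases begin with the start codon of mt-Atp6, and the 7 shared bases with that of mt-Nd4.

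On HFD the deposited FPKM of most mitochondrial members was higher than on CD under both genotype labels. For 9 of the 13 (mt-Nd1, mt-Nd2, mt-Nd4, mt-Nd5, mt-Cytb, mt-Co1, mt-Co2, mt-Co3 and mt-Atp6) all 4 HFD libraries lay above all 4 CD libraries, a pattern that 6.21% of the 11634 genes tested showed, and no mitochondrial member showed the opposite pattern, which 10.3% of the tested genes did. Of the 78 nuclear members, 5 lay higher in all HFD libraries (Atp5s, Cox6c, Ndufb10, Sdhd and Uqcrc2) and 5 lower (Atp5j2, Atp5mpl, Atp5o, Cox5a and Ndufb7). The 13 mitochondrial values of a library share their template and the scaling of that library, so that they do not count as 13 separate observations.

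For mt-Nd1, a core subunit of complex I next to the quinone site, FPKM was 10643 and 11079 in the f/f CD libraries, 11637.5 and 12864 in the f/f HFD libraries, 10198 and 10639 in the LKO CD libraries and 13912 and 13687 in the LKO HFD libraries. For mt-Nd2, in the proton-pumping arm, the values in the same order were 18399.7 and 16838, 19195 and 20609.8, 15713 and 14431, and 22057 and 21826. In both genes the LKO HFD libraries were the highest of the 8 and the LKO CD libraries the lowest. The FPKM of mt-Nd4, also in the pumping arm, was 14845 and 14382 (f/f CD), 15307 and 16451 (f/f HFD), 13233 and 13092 (LKO CD) and 17427.5 and 16040.3 (LKO HFD). The FPKM of mt-Nd5 was 5569 and 5563 (f/f CD), 6365 and 7341 (f/f HFD), 4908 and 5003 (LKO CD) and 7254 and 5952 (LKO HFD). For both, HFD and CD libraries did not overlap, and the f/f and LKO libraries on HFD did.

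The other 3 mitochondrial genes of complex I did not follow this order. For mt-Nd3, FPKM was 5321 and 5092 (f/f CD), 4912 and 5201 (f/f HFD), 4573 and 4434 (LKO CD) and 4704 and 4738 (LKO HFD), with all LKO libraries below all f/f libraries. The values of mt-Nd6 were 12089 and 12002.5 (f/f CD), 12769 and 14163 (f/f HFD), 9239 and 8752 (LKO CD) and 10929 and 9959 (LKO HFD), and here too each LKO library was below each f/f library. These were the 2 mitochondrial members with that pattern, beside 1 of 78 nuclear members (Atp5h) and 2.49% of all tested genes. mt-Nd4l had the lowest FPKM of the mitochondrial members by a wide margin, which need not be its RNA level. Its values were 24.6 and 14.6 (f/f CD), 38.0 and 36.3 (f/f HFD), 32.4 and 21.5 (LKO CD) and 33.0 and 27.5 (LKO HFD). Its f/f CD libraries were among the lowest, and its LKO CD and LKO HFD libraries overlapped.

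The mitochondrial genes of complexes III, IV and V were closer to each other in pattern. For mt-Cytb, which holds both quinone sites of complex III, FPKM was 14448 and 14425.5 (f/f CD), 14959 and 17088 (f/f HFD), 13026 and 13538 (LKO CD) and 17456 and 15272 (LKO HFD). The catalytic subunit mt-Co1 had 28844 and 31307 (f/f CD), 31337 and 33597 (f/f HFD), 29655 and 30370.4 (LKO CD) and 35010.4 and 33664 (LKO HFD). The lowest HFD library of mt-Co1 (31337) lay just above the highest CD library (31307), so that this separation is slight. The FPKM of mt-Co2, which receives electrons from cytochrome c, was 24055 and 24525 (f/f CD), 25389 and 27529 (f/f HFD), 22734 and 22243 (LKO CD) and 28349 and 26721 (LKO HFD). For mt-Co3 it was 18694 and 19634 (f/f CD), 20219.7 and 22175 (f/f HFD), 18042 and 19695 (LKO CD) and 22296 and 20176 (LKO HFD). The genotypes overlapped on each diet for mt-Co3, and on CD for mt-Co1. On HFD they also overlapped for mt-Cytb, mt-Co2, mt-Atp6 and mt-Atp8, and among these genes mt-Co1 alone was separate there. mt-Atp6, of the proton channel of ATP synthase, had 27425 and 28106 (f/f CD), 28764 and 31721 (f/f HFD), 26109.9 and 25217 (LKO CD) and 32617 and 31331 (LKO HFD). mt-Atp8 had 73201 and 61530.3 (f/f CD), 56642.5 and 65161 (f/f HFD), 54658 and 53721 (LKO CD) and 68021 and 65146 (LKO HFD). The highest value of mt-Atp8 was thus an f/f CD library, and its diets separated in the LKO libraries but not in the f/f libraries.

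**Figure D2:**
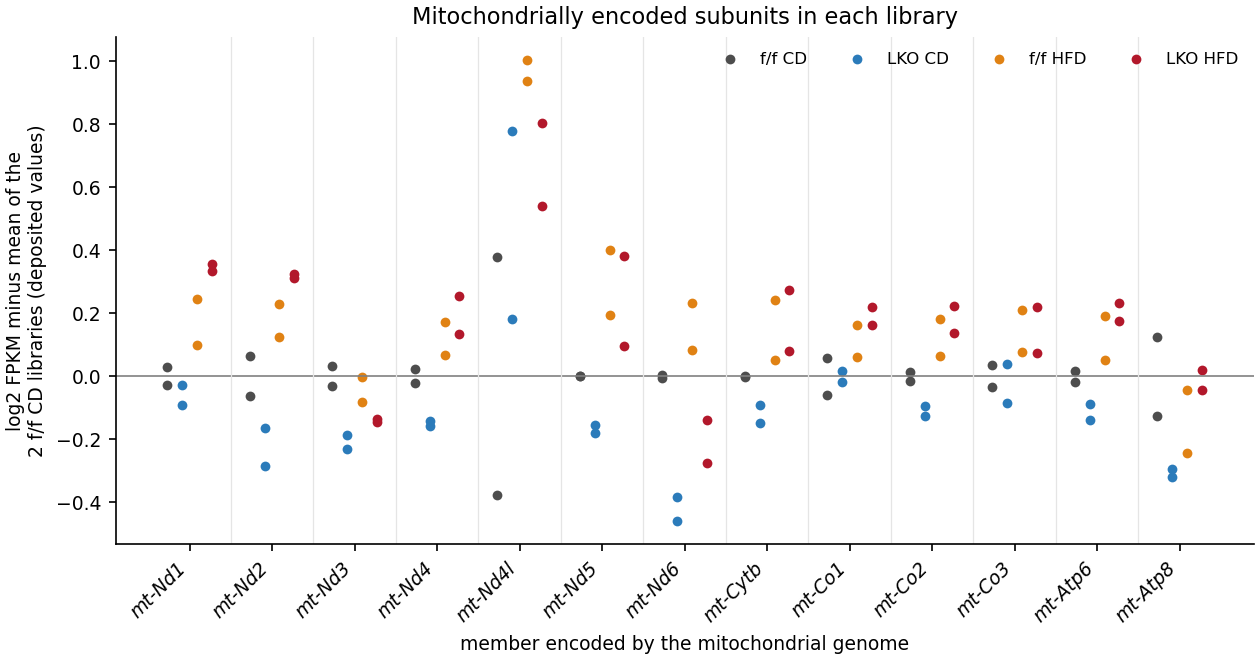
Deposited log2 FPKM of the 13 mitochondrial members in each of the 8 libraries, relative to the mean of the 2 f/f CD libraries of the same gene. Each point is a library, colours mark the 4 groups, and the HFD libraries lie above the CD libraries for 9 genes but not for mt-Nd3, mt-Nd4l, mt-Nd6 and mt-Atp8.

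On CD both LKO libraries lay below both f/f libraries for 10 of the 13 mitochondrial members, all but mt-Nd4l, mt-Co1 and mt-Co3, against 7 of 78 nuclear members and 22.6% of the tested genes. The balance of the genomes was then read within each library, where its scaling cancels. The median log2 FPKM of the mitochondrial members other than mt-Nd4l, minus that of the nuclear members, was 7.22 and 7.18 in the f/f CD libraries, 7.29 and 7.38 in the f/f HFD libraries, 7.05 and 6.97 in the LKO CD libraries and 7.43 and 7.35 in the LKO HFD libraries. All HFD libraries were above all CD libraries, the LKO CD libraries were the lowest, and the 2 HFD groups overlapped. The group means were 7.20 ± 0.0286 for f/f CD, 7.33 ± 0.0642 for f/f HFD, 7.01 ± 0.0566 for LKO CD and 7.39 ± 0.0561 for LKO HFD (SD, n = 2 libraries each). The ratio of summed mitochondrial to summed nuclear FPKM was 23.0 and 22.5 (f/f CD), 22.7 and 24.2 (f/f HFD), 20.1 and 19.1 (LKO CD) and 25.0 and 23.7 (LKO HFD), and by this measure f/f CD and f/f HFD overlapped. These sums include mt-Atp8, the largest mitochondrial term (mean 62260), whose FPKM need not describe its RNA level. Its own values overlapped between f/f CD (73201 and 61530.3) and f/f HFD (56642.5 and 65161). The ratio without mt-Atp8 was not computed, so that this overlap may rest on that gene. The polyadenylated fraction was sequenced, so that these ratios describe the polyadenylated RNA of both genomes.

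The tests used limma on log2(FPKM + 1), with 1 fit of the 4 group means over 11634 genes above 1 FPKM in at least 1 library, and an adjusted p (Benjamini-Hochberg) under 0.05 was called. The libraries were quantile normalized in this fit, as the study's methods state. That step gives the gene at each rank the same value in every library, and the mitochondrial members hold the highest ranks together with Alb, which is listed at 0 in 4 libraries, and ENSMUSG00000093077, whose FPKM was 183794 in f/f CD replicate 2 and 15648 to 42850 elsewhere. The mitochondrial fold changes are therefore given under 3 scalings, in this order, quantile normalization, no normalization, and each library centred on the median of the nuclear members. The last was added after the values had been seen.

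Averaged over the genotypes, all 13 mitochondrial members had positive HFD against CD fold changes under each of the 3 scalings, with medians of 0.24, 0.22 and 0.25 on the log2 scale. The number that passed the test depended on the scaling, at 1 with quantile normalization (mt-Nd5), 3 without normalization (mt-Nd1, mt-Nd2 and mt-Nd5) and 5 with centring on the nuclear members (mt-Nd1, mt-Nd2, mt-Nd4, mt-Nd5 and mt-Atp6). Of all genes, 9.89%, 9.46% and 8.48% were called in the same order. mt-Nd5 rose under all 3, by 0.54 (SE 0.11, limma adjusted p = 0.034), 0.35 (limma adjusted p = 0.0479) and 0.38 (limma adjusted p = 0.0333). With quantile normalization its call was lost when any 1 library was left out (limma adjusted p = 0.0563 to 0.129). For mt-Nd2 the fold changes were 0.26 (SE 0.11, limma adjusted p = 0.183), 0.36 (limma adjusted p = 0.0258) and 0.39 (limma adjusted p = 0.0135) in the same order. For mt-Nd1 they were 0.33 (SE 0.13, limma adjusted p = 0.172), 0.29 (limma adjusted p = 0.0365) and 0.32 (limma adjusted p = 0.018). The values of mt-Atp6 were 0.20, 0.22 and 0.25, and those of mt-Nd4 0.13, 0.23 and 0.26. The fold change of mt-Nd3 was 0.30 with quantile normalization and 0.01 and 0.04 under the other scalings, and that of mt-Atp8 was 0.24, 0.08 and 0.11. The other 5, mt-Nd6, mt-Cytb, mt-Co1, mt-Co2 and mt-Co3, had fold changes of 0.10 to 0.28 over the scalings, and mt-Nd4l of 0.56 to 0.59 (limma adjusted p = 0.0986 with quantile normalization). The summed stellate cell markers separated the diets as well, with Dcn (26.4 to 45.3 on CD and 52.5 to 72.2 on HFD) as the largest term. Of the 8 markers, 4 separated the diets (Des, Dcn, Reln and Rgs5) and 4 overlapped (Lrat, Col1a1, Col3a1 and Pdgfrb), and their part in these fold changes was not tested.

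Within a genotype label the fold changes between diets were as follows. In the f/f libraries the median over the 13 mitochondrial members was 0.30, 0.14 and 0.19 under the 3 scalings, with 13, 11 and 12 positive, and in the LKO libraries it was 0.12, 0.30 and 0.32, with 10, 13 and 13 positive. In the LKO libraries mt-Nd2 had a fold change of 0.18 with quantile normalization (limma adjusted p = 0.564), 0.54 without normalization (limma adjusted p = 0.0404) and 0.56 with centring (limma adjusted p = 0.0278), and mt-Nd1 had 0.32, 0.41 and 0.43 in the same order (limma adjusted p = 0.0421 with centring). In that comparison 3.02%, 3.22% and 3.09% of all genes were called. The fold change of mt-Nd5 was 0.46 in the f/f libraries with quantile normalization (SE 0.16, limma adjusted p = 0.200), and 0.30 and 0.34 under the other scalings. In the LKO libraries it was 0.62 (SE 0.16, limma adjusted p = 0.0934), and 0.41 and 0.43 under the others. The fold change of mt-Nd4l in the f/f libraries was 0.97 (SE 0.27, limma adjusted p = 0.130), 0.93 and 0.98. On the difference between the diet effects of the genotypes, the median over the 13 was -0.17 with quantile normalization and 0.15 and 0.13 under the other scalings, so that its direction rested on the scaling, and no member passed the test.

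Between the genotypes on CD the direction of the mitochondrial members also rested on the scaling. Their median fold change, LKO against f/f, was 0.17 with quantile normalization (10 of 13 positive), -0.12 without normalization (1 of 13 positive) and -0.13 with centring on the nuclear members (1 of 13 positive). With quantile normalization it was 0.01 without LKO CD replicate 1 and 0.33 without LKO CD replicate 2. On HFD it was 0, 0.06 and 0.02. No mitochondrial member passed the limma test between genotypes on either diet under any of the 3 scalings, and with quantile normalization 0 had an unadjusted p under 0.05. For mt-Nd3 on CD the fold change was -0.24 with quantile normalization (SE 0.13, limma adjusted p = 0.504), and -0.21 and -0.22 under the others. For mt-Nd1 on HFD it was 0.27 (SE 0.19, limma adjusted p = 0.700), and 0.17 and 0.14 under the others.

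**Figure D3:**
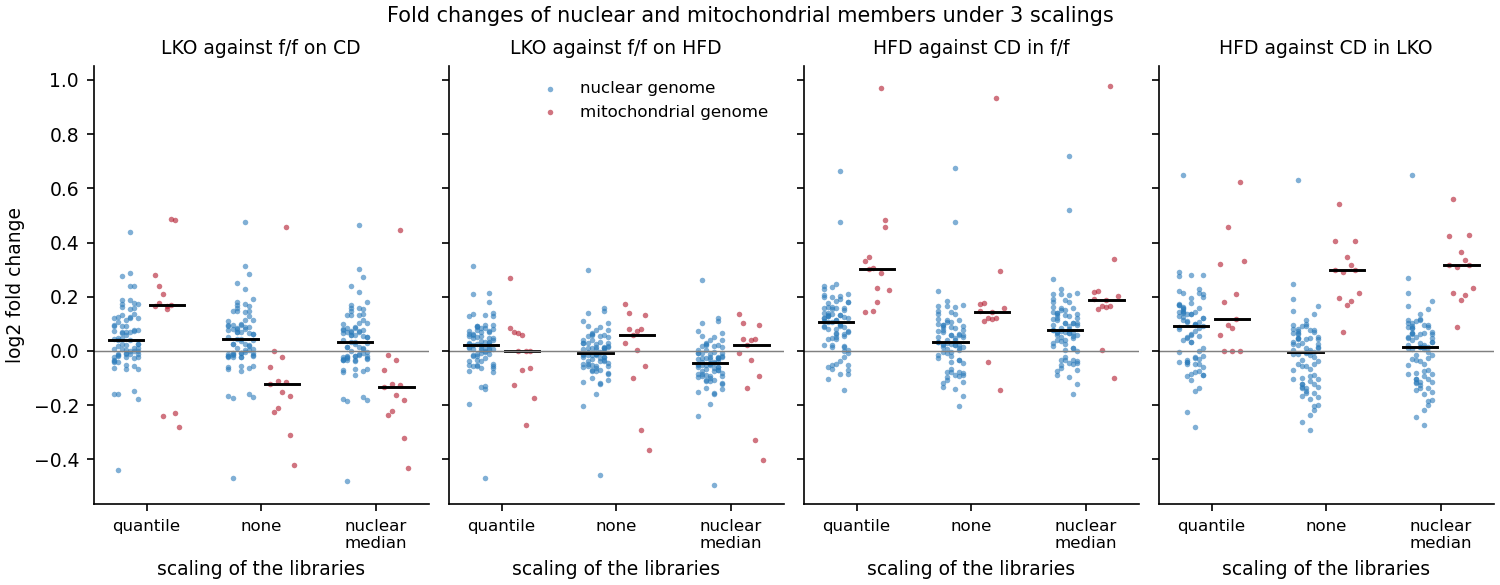
Log2 fold changes of the 78 nuclear and 13 mitochondrial members in the 4 comparisons of 2 groups, under quantile normalization, no normalization and centring on the nuclear members. Points are genes and bars are medians, and the mitochondrial median on CD moves from 0.17 to -0.12 and -0.13 with the scaling, whereas the mitochondrial medians between diets are positive in each panel.

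mt-Nd6, the minus-strand member, was singled out after its values were seen. Its fold change between LKO and f/f averaged over the diets was -0.23 with quantile normalization (SE 0.14, limma adjusted p = 0.527), -0.39 without normalization (limma adjusted p = 0.104) and -0.42 with centring (limma adjusted p = 0.0845), none of which passed the test. Within libraries, log2 FPKM of mt-Nd6 minus the median of 11 other mitochondrial members (mt-Nd4l left out) was -0.61 and -0.49 (f/f CD), -0.59 and -0.54 (f/f HFD), -0.77 and -0.72 (LKO CD) and -1.01 and -1.02 (LKO HFD). The f/f libraries on both diets lay together, the LKO CD libraries lower and the LKO HFD libraries lowest. Against mt-Nd5, its neighbour on the other strand whose end is shown above, the difference was 1.12 and 1.11 (f/f CD), 1.00 and 0.95 (f/f HFD), 0.91 and 0.81 (LKO CD) and 0.59 and 0.74 (LKO HFD). Each LKO library was below each f/f library by this measure too. How many of the fragments counted for mt-Nd6 came from each strand cannot be told from an unstranded kit.

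**Figure D4:**
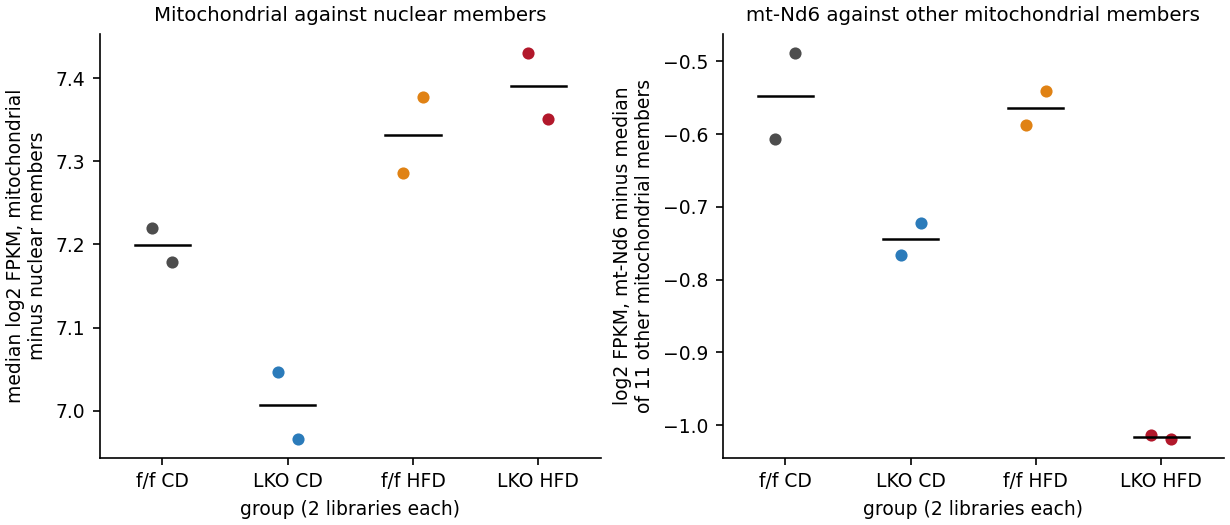
Left, median log2 FPKM of the mitochondrial members (mt-Nd4l left out) minus that of the nuclear members in each library, and right, log2 FPKM of mt-Nd6 minus the median of the 11 other mitochondrial members. Points are libraries and bars the means of 2, and the left panel runs from 6.97 in an LKO CD library to 7.43 in an LKO HFD library, while the LKO HFD libraries lie at -1.01 and -1.02 in the right panel.

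Over all 91 members tested with quantile normalization, 2 were called in any comparison, Cox6c and mt-Nd5, both for diet averaged over the genotypes and both higher on HFD. In that comparison 9.89% of the 11634 genes were called, and 2 of 91 members is a smaller share than this background. When each library was instead rescaled to the same sum over nuclear protein coding genes, 35 members were called, beside 21.5% of all genes, on a scale where a library with Alb at 0 has a smaller sum and hence higher values for all other genes. The counts were 0 of 91 for LKO against f/f on CD (0.0172% of genes called), 0 on HFD (0.0430%), 0 for the genotype averaged over the diets (0.103%) and 0 for the difference between the diets of the LKO effect (0.0344%). They were also 0 for HFD against CD in the f/f libraries (1.33%) and in the LKO libraries (3.02%). At an unadjusted p under 0.05, limma had 2 members between genotypes on CD, 2 on HFD, 3 on average and 2 for the difference of the LKO effect, and 12 and 14 members between diets in the f/f and LKO libraries. On average over the genotypes there were 28 members at that level between diets. These compare with 12.3%, 9.58%, 13.5%, 8.35%, 19.2%, 21.3% and 27.9% of all genes in the same order. Without normalization and with centring on the nuclear members, 0 of the 78 nuclear members were called in any of the 7 comparisons. Centring sets the median of these same members equal in every library, so that a shift they share cannot show there. Of all genes, 9.46% without normalization and 8.48% with centring were called for averaged diet. Between diets in the LKO libraries these shares were 3.22% and 3.09%.

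On the quantile normalized values, the libraries of the 2 groups did not overlap for 22 members higher and 7 lower in LKO on CD, where 43.0% of all genes had no overlap, and for 16 higher and 7 lower on HFD, where 42.2% did. Between diets there was no overlap for 50 members higher and 1 lower on HFD in the f/f libraries (50.3% of all genes) and for 41 higher and 10 lower in the LKO libraries (52.9% of all genes). The nuclear median between diets averaged over the genotypes was 0.09, 0.02 and 0.05 under the 3 scalings, with 64, 48 and 54 of 78 positive. Over all genes the median was 0.01, -0.02 and 0.02, and 52.7% were positive with quantile normalization. In the LKO libraries the nuclear median was 0.09, -0.0040 and 0.02, so that its sign turned without normalization. The median over all genes there moved too, at 0.0058, -0.0236 and -0.0043, and stayed below the nuclear median under each scaling. In the f/f libraries the nuclear median was 0.11, 0.03 and 0.08, beside 0.01, -0.01 and 0.03 over all genes. Between genotypes the nuclear median was 0.04, 0.04 and 0.03 on CD and 0.02, -0.01 and -0.05 on HFD. Over all genes it was -0.0009, -0.0017 and -0.0136 on CD and -0.0007, -0.0139 and -0.0506 on HFD.

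By complex, the nuclear medians for diet averaged over the genotypes were 0.09 for complex I (29 of 35 positive, 0 called), 0.14 for complex II (4 of 4, 0 called), 0.13 for complex III (7 of 8, 0 called), 0.10 for complex IV (13 of 14, 1 called) and 0.04 for complex V (11 of 17, 0 called) with quantile normalization. Of all genes, 52.7% were positive in this comparison with quantile normalization. Without normalization the positive members were 23, 4, 5, 8 and 8 in the same order. Complex II was thus positive in all 4 genes under both scalings, and under centring as well. Succinate dehydrogenase gave its smallest limma adjusted p, 0.0642, for the anchor Sdhd, whose FPKM was 121 and 125 (f/f CD), 133 and 139 (f/f HFD), 125 and 128 (LKO CD) and 129 and 132 (LKO HFD). Sdhd was higher in each HFD library than in each CD library, with a fold change of 0.16 (SE 0.04), 0.09 and 0.13 under the 3 scalings.

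Cox6c, an accessory subunit of complex IV on chromosome 15 of GRCm38 (35925886 to 35938246, minus strand), was the single nuclear member that passed the test. Its FPKM was 267 and 271 (f/f CD), 298 and 282 (f/f HFD), 275 and 277 (LKO CD) and 279.7 and 310.1 (LKO HFD). All 4 HFD libraries were above all 4 CD libraries, the closest pair being 277 and 279.7. The fold change between diets averaged over the genotypes was 0.26 with quantile normalization (SE 0.05, limma adjusted p = 0.0277), 0.10 without normalization (limma adjusted p = 0.27) and 0.13 with centring (limma adjusted p = 0.19). Among these 3 scalings the call held only with quantile normalization, and there it was lost when any 1 library was left out (limma adjusted p = 0.0526 to 0.0885). Cox7b, also of complex IV, had 139 and 136 (f/f CD), 151 and 157 (f/f HFD), 141 and 156 (LKO CD) and 159 and 156 (LKO HFD), and its fold change of 0.20 (SE 0.05, limma adjusted p = 0.057) did not pass.

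With quantile normalization Uqcr11, a small accessory subunit of complex III, had the smallest adjusted p of any member between genotypes. The gene (ENSMUSG00000020163) lies on the minus strand of chromosome 10 of GRCm38 from 80402997 to 80406830. Its FPKM was 239.8 and 242 (f/f CD), 218 and 235 (f/f HFD), 287 and 299.9 (LKO CD) and 255 and 249 (LKO HFD). All 4 LKO libraries were above all 4 f/f libraries, a pattern that 2 of the 78 nuclear members (Uqcr11 and Cox7c) and 2.42% of the tested genes showed. The fold change was 0.24 on CD (SE 0.08, limma adjusted p = 0.297), 0.21 on HFD (SE 0.08, limma adjusted p = 0.436) and 0.23 on average (SE 0.05, limma adjusted p = 0.160), and it did not pass the test in any of them. It was also positive without normalization, at 0.28 on CD, 0.16 on HFD and 0.22 on average. For Cox7c the FPKM was 243 and 228 (f/f CD), 237 and 238 (f/f HFD), 252 and 246 (LKO CD) and 248 and 246 (LKO HFD), with an average fold change of 0.05 (SE 0.05, limma adjusted p = 0.668). In the opposite direction Atp5h, of the peripheral stalk of ATP synthase, had 277 and 289 (f/f CD), 277 and 279 (f/f HFD), 257 and 247 (LKO CD) and 259 and 254 (LKO HFD), and its average fold change was -0.12 (SE 0.05, limma adjusted p = 0.384).

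The other nuclear members with the largest separated differences were mostly of low level or unequal between replicates, and none passed the test. Ndufs7, a core iron-sulfur subunit of complex I on chromosome 10 (80249121 to 80256794, plus strand), had an FPKM of 55.3 and 52.5 (f/f CD), 57.8 and 65.2 (f/f HFD), 56.6 and 73.1 (LKO CD) and 59.5 and 55.0 (LKO HFD). Its fold change between genotypes on CD was 0.28 (SE 0.12, limma adjusted p = 0.424), with a wide gap between the 2 LKO CD libraries. Ndufc1, an accessory subunit of complex I, had 26.7 and 14.4 (f/f CD), 18.4 and 17.3 (f/f HFD), 12.6 and 15.4 (LKO CD) and 22.2 and 22.1 (LKO HFD). The diets separated in the LKO libraries (0.65, SE 0.25, limma adjusted p = 0.193), and the f/f CD libraries spanned most of the range of the gene. Cox7a1 had 1.10 and 0.351 (f/f CD), 1.26 and 2.20 (f/f HFD), 1.13 and 1.57 (LKO CD) and 2.48 and 0.756 (LKO HFD), with a fold change between diets in the f/f libraries of 0.67 (SE 0.37, limma adjusted p = 0.376).

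**Figure D5:**
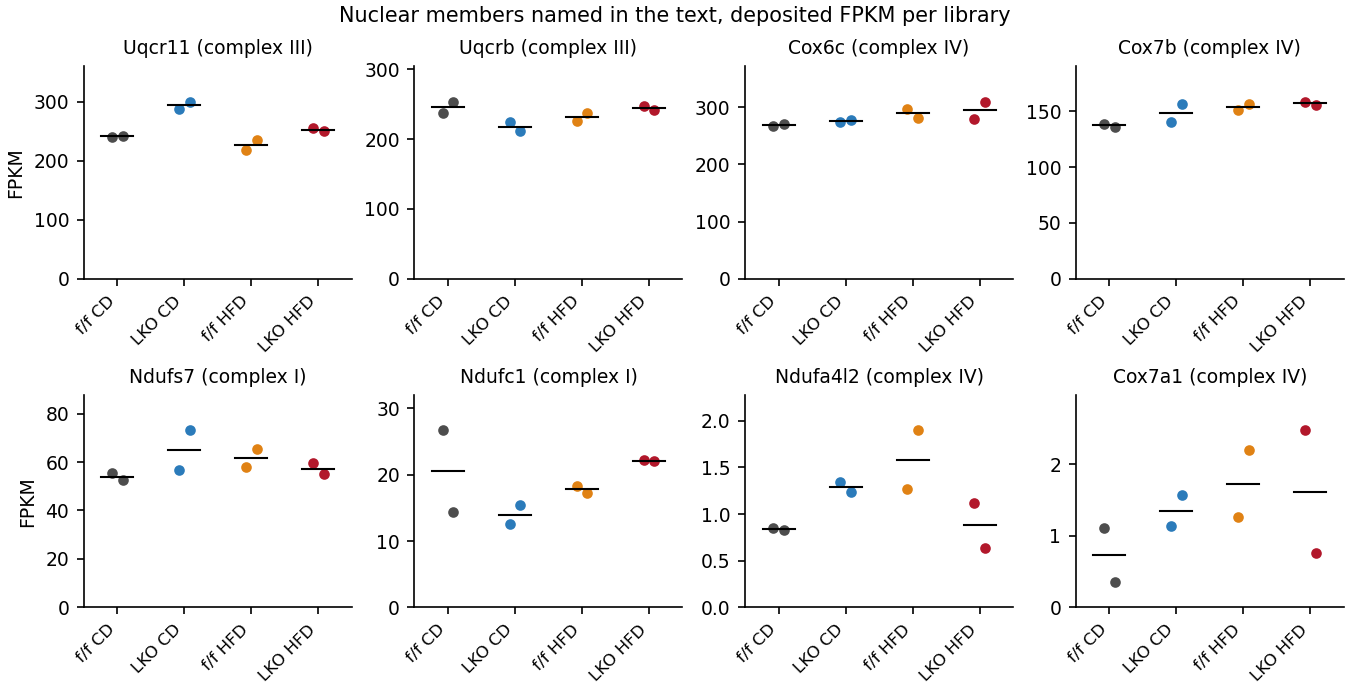
Deposited FPKM of 8 nuclear members in each library (points) with the mean of the 2 libraries of each group (bars), on axes that start at 0. Uqcr11 is higher in every LKO than in every f/f library, while Ndufc1 and Cox7a1 show gaps between the libraries of 1 group, 26.7 against 14.4 and 2.48 against 0.756, as large as those between groups.

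Whether the effect of the genotype label differed between the diets was tested for each member, and none passed (2 of 91 at an unadjusted limma p under 0.05, Uqcrb and Ndufa4l2). Uqcrb, of complex III, had an FPKM of 237 and 254 (f/f CD), 226 and 238 (f/f HFD), 225 and 211 (LKO CD) and 247 and 241 (LKO HFD). It was lower in LKO than in f/f on CD (-0.18, limma adjusted p = 0.427) and higher on HFD (0.10, limma adjusted p = 0.749), without overlap of the libraries on either diet, and the difference was 0.28 (SE 0.11, limma adjusted p = 0.594). Ndufa4l2 had an FPKM of 0.846 and 0.832 (f/f CD), 1.26 and 1.90 (f/f HFD), 1.34 and 1.23 (LKO CD) and 1.12 and 0.639 (LKO HFD). It lay higher in LKO on CD (0.29, limma adjusted p = 0.545) and lower on HFD (-0.47, limma adjusted p = 0.468), and the difference was -0.76 (SE 0.25, limma adjusted p = 0.558). In the nuclear genes of complex IV the difference was positive for 5 of 14 with quantile normalization and for 0 of 14 under the other scalings. Over all 78 nuclear members it was positive for 38 with quantile normalization, 23 without normalization and 16 with centring. The median difference for complex IV with quantile normalization was -0.03. Over 12 genes of complex IV, the median log2 FPKM against the mean of each gene was highest in LKO CD replicate 2, at 0.10. This library was also the highest for the nuclear genes of complexes I (0.05), III (0.06) and V (0.05). For complex II the highest was f/f HFD replicate 2, at 0.07.

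Genes that serve the complexes without being part of them were counted from lists compiled by hand. For diet averaged over the genotypes, 4 of 48 assembly factors passed the test, all higher on HFD, as did 5 of 19 genes of electron carriers and coenzyme Q synthesis, 3 higher and 2 lower. In the same comparison 0 of 20 genes of mitochondrial DNA copying, transcription and RNA stability, 1 of 12 transcription factors and coactivators and 1 of 5 carriers of the inner membrane passed, beside the 9.89% of all genes. Between genotypes and for the difference of the LKO effect none of the 103 listed genes passed in limma. At an unadjusted p under 0.05 there were 8 on CD (7.77%, against 12.3% of all genes), 10 on HFD (9.71% against 9.58%), 6 on average (5.83% against 13.5%) and 11 for the difference (10.7% against 8.35%). For averaged diet 20 of the 103 were at that level (19.4%, against 27.9% of all genes). They were 9 assembly factors, 5 electron carrier genes, 1 gene of mitochondrial DNA and RNA, 2 transcription factors and coactivators and 3 carriers. For the diets within a label, 1 assembly factor (Ndufaf3) and 1 electron carrier gene (Coq8a) passed in the f/f libraries. In the LKO libraries 1 assembly factor (Sco2) and 4 electron carrier genes passed, Coq8a, Etfdh and Etfa higher and Coq10b lower. Of all genes, 1.33% were called in the f/f libraries and 3.02% in the LKO libraries.

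The 4 listed genes with the smallest p for averaged diet act at or near ubiquinone, the carrier that takes electrons from complexes I and II to complex III. Coq8a, a kinase-like protein needed for ubiquinone synthesis, had an FPKM of 50.3 and 50.2 (f/f CD), 82.0 and 73.2 (f/f HFD), 75.1 and 66.2 (LKO CD) and 106 and 96.9 (LKO HFD). HFD was above CD within each label, and the fold change was 0.64 (SE 0.07, limma adjusted p = 0.00677). Etfdh, which passes electrons of fatty acid oxidation to ubiquinone, had 117 and 129 (f/f CD), 154 and 145 (f/f HFD), 121 and 129 (LKO CD) and 174 and 183 (LKO HFD), and its fold change was 0.48 (SE 0.06, limma adjusted p = 0.00714). Etfa, a subunit of the flavoprotein that feeds Etfdh, rose by 0.36 (SE 0.05, limma adjusted p = 0.00998). Coq10b, a ubiquinone binding protein, had 48.2 and 48.0 (f/f CD), 26.5 and 31.9 (f/f HFD), 26.9 and 33.4 (LKO CD) and 13.0 and 17.0 (LKO HFD), and fell by 0.80 on the log2 scale (SE 0.11, limma adjusted p = 0.00926). The lowest values of Coq10b were those of the LKO HFD libraries. Each of these 4 also passed without normalization and with centring.

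Among the assembly factors, Sco2, which delivers copper to complex IV, rose by 0.49 (SE 0.07, limma adjusted p = 0.0118), and Ndufaf3, of complex I assembly, by 0.29 (SE 0.05, limma adjusted p = 0.0203). Esrrg, an oestrogen-related receptor, was at 1.72 and 0.838 (f/f CD), 2.35 and 3.03 (f/f HFD), 1.42 and 1.08 (LKO CD) and 3.33 and 3.60 FPKM (LKO HFD), and rose by 0.87 (limma adjusted p = 0.0182). Nnt, the proton-driven transhydrogenase, rose by 0.29 (limma adjusted p = 0.0175). These 4 passed under all 3 scalings. Taco1, Oxa1l and Coq8b are named after their values were seen, since they complete the counts, with fold changes of 0.30, 0.22 and -0.34, and Taco1 and Oxa1l did not pass under the other scalings, nor Coq8b with centring. The regulators named most often for respiratory genes did not pass, with diet fold changes of -0.05 for Ppargc1a, 0.10 for Ppargc1b, 0.03 for Esrra (-0.0040 without normalization), -0.05 for Nrf1 and -0.10 for Gabpa. Nor did Tfam (0.09), Polrmt (0.05) and Lrpprc (-0.08), which act on mitochondrial DNA and its RNA, or cytochrome c, Cycs (0.09), and their limma adjusted p ran from 0.255 to 0.808. Ppargc1a, the coactivator PGC-1α, had an FPKM of 3.09 and 3.91 (f/f CD), 2.58 and 2.37 (f/f HFD), 1.96 and 2.17 (LKO CD) and 2.61 and 2.53 (LKO HFD), lower in LKO than in f/f on CD, with a fold change averaged over the diets of -0.26 (limma adjusted p = 0.244).

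The promoters of the nuclear members were searched for exact motif letters on both strands, in windows from 250 bases before to 50 bases after the start in RefSeq on GRCm38.p6. Of the 78 nuclear members above 1 FPKM, 65 were matched. The NRF1 core GCGCATGCG was found in 8 of them (12.3%, against 1.95% of 27025 genes), the ETS core CCGGAAG in 16 (24.6% against 9.93%) and the YY1 core ATGGCGG in 10 (15.4% against 4.69%). The ERR site TCAAGGTCA was found in 2 (Atp5g3 and Sdhd, 3.08% against 0.466%), and the ROR site core TAGGTCA in 3 (Cox7b, Ndufa11 and Ndufb10, 4.62% against 2.97%). Part of the ERR letters, AGGTCA, also ends the ROR core. Both sequences below run to the base before the start, that of Uqcr11 (chr10:80406822-80407071, minus strand) because this member separated the genotypes, and that of Cox7b (chrX:106015450-106015699, plus strand) because it holds a ROR core. In Uqcr11, capitals mark the ETS core that begins 66 bases before the start and, from 5 bases before it, the first part of an NRF1 core on the opposite strand that runs past the start. In Cox7b they mark the ROR core that begins 25 bases before the start.
Uqcr11: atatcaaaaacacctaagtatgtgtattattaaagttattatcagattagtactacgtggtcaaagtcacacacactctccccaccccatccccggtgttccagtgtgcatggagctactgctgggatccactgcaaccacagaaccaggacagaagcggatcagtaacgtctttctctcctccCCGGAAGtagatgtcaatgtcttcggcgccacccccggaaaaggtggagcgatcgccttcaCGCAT
Cox7b: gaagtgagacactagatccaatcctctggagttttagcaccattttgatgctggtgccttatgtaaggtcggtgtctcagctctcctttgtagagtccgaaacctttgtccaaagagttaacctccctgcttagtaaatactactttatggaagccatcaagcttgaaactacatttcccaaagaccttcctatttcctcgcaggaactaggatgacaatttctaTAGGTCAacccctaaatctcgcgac
The fold change of Cox7b between genotypes did not pass on either diet, as for every other member, and a match of letters does not show that a factor is bound.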

How the data were processed

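Livers were measured by sequencing of polyadenylated RNA (TruSeq RNA v2, a kit that does not mark strand). Per the labels and the study's methods, the authors trimmed reads with cutadapt 1.0, aligned them with TopHat2 2.0.7 to GRCm38 and estimated the deposited FPKM with Cufflinks. Counts were not used here and depth is unknown. Symbols, coordinates and gene types came from GENCODE M21 (36341 of 38283 genes matched). Genes above 1 FPKM in at least 1 library (11634) were transformed as log2(FPKM + 1) and quantile normalized, and fold changes on this scale understate those of low genes. limma 3.58.1 in R 4.3.3 fitted 4 group means to 8 libraries with a mean-variance trend (4 residual and 2.8 prior degrees of freedom) and Benjamini-Hochberg adjustment in each of 7 comparisons, which share libraries. Members and lists were chosen with earlier results of these data known. Named with values were all mitochondrial members, called members, the 4 largest separated differences in each comparison of 2 groups, the highest and lowest member of each complex, tissue isoforms, and from the other lists up to 8 called genes and fixed regulators. Members chosen outside this rule after their values were seen are Uqcrb, Cox7c, Atp5h, Sdhd, Cox7b beyond its isoform set, and those listed by the overlap of deposited values. Alternatives were other scalings, a pseudocount of 0.1, other filters, no trend, the replicate block, the 4 libraries of a comparison alone and each library left out. Steps were tested on simulated data. Figures were drawn with matplotlib 3.10.9.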

Additional observations from a re-analysis of the deposited data

Results flagged for a closer look

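In 4 members the libraries separated in opposite directions under the 2 diets or the 2 labels, on the quantile normalized scale. Uqcrb was lower in LKO on CD and higher on HFD, with a difference of 0.276 (limma adjusted p = 0.594), and Ndufa4l2 the other way round, with a difference of -0.757 (limma adjusted p = 0.558). For Atp5l, a subunit at the membrane part of ATP synthase, the HFD libraries lay above the CD libraries in f/f (0.13) and below them in LKO (-0.08), with a difference of -0.21 (limma adjusted p = 0.639). For Ndufb7, an accessory subunit of complex I, the same order was seen with 0.02 and -0.03, a difference of -0.0493 (limma adjusted p = 0.874), whereas its deposited FPKM was lower on HFD under both labels. None of these 4 differences passed the test.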

How the results depend on the processing

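With 2 libraries per group and 4 residual degrees of freedom, differences between genotypes of the size seen for Uqcr11 were not called, and a missed test does not show equal levels. Of the 21 fold changes of single members that were repeated under each alternative, none reversed, 21 values lost a call and 4 gained one. The calls lost were those of Cox6c (0.24 to 0.29 with each library left out, limma adjusted p from 0.0526 to 0.0885) and mt-Nd5 (0.45 to 0.63, limma adjusted p from 0.0563 to 0.129) for diet averaged over the genotypes. The calls gained were those of mt-Nd5 and mt-Nd1 between diets in the LKO libraries. The causes of the changes listed here were not tested, unless the construction of the alternative shows them.

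Counts of genes called over the whole table moved as follows. Between genotypes on CD (2 genes), 1 was called with a pseudocount of 0.1, 7 with FPKM above 1 in all 8 libraries, 10 with FPKM above 0, 4 without the trend, 9 without genes listed at 0 and 0 from the 4 libraries alone. Between genotypes on HFD (5 genes) there were 3 after rescaling to the nuclear protein coding sum and 24 with FPKM above 0. Between diets in the f/f libraries (155 genes) there were 323 with FPKM above 1 in all libraries, 46 with FPKM above 0, 42 without the trend, 297 without genes listed at 0 and 5 from the 4 libraries alone. In the LKO libraries (351 genes) there were 731 after rescaling, 570 with FPKM above 1 in all libraries, 135 with FPKM above 0, 229 without the trend, 568 without genes listed at 0 and 0 from the 4 libraries alone. For the difference of the LKO effect (4 genes) there were 2 with the pseudocount of 0.1, 0 with FPKM above 1 in all libraries, 19 with FPKM above 0 and 0 without genes listed at 0. For diet averaged over the genotypes (1151 genes) there were 2499 after rescaling and 704 with FPKM above 0, and for the averaged genotype (12 genes) 7 without normalization, 50 with FPKM above 1 in all libraries, 28 with FPKM above 0 and 38 without genes listed at 0. With each library left out the ranges were 2 to 20, 4 to 25, 12 to 34, 19 to 79, 11 to 21, 335 to 728 and 12 to 27 genes in the order CD, HFD, f/f, LKO, difference, averaged diet and averaged genotype.

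The replicate numbers did not pair the libraries (deviations from the group means correlated at -0.00371 to 0.149 between libraries that carry the same number, over 6 pairs of groups, and at -0.0611 to 0.0351 without genes listed at 0). With the replicate block the counts were 2, 7, 34, 223, 3, 882 and 9 genes in that order, and for members 0 in each comparison except 2 for averaged diet. With the block the limma adjusted p of mt-Nd5 for averaged diet was 0.0545.

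Members called between diets in the LKO libraries (0) were 1 without normalization, 1 with centring on the library median, 3 after rescaling, 1 with FPKM above 1 in all libraries, 1 without genes listed at 0 and 2 with centring on the nuclear members. Of all genes, 3.02% were called in the main fit there, 3.22% without normalization and 3.09% with centring on the nuclear members. For averaged diet (2) they were 35 after rescaling, 6 with FPKM above 1 in all libraries, 1 with FPKM above 0, 4 without genes listed at 0, 5 with centring on the nuclear members and 0 to 1 with each library left out. Of all genes, 9.89% were called in the main fit of averaged diet, 21.5% after rescaling and 8.48% with centring on the nuclear members. Where no share or count of all genes is given for a setting, its member count is not set against a background.

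The nuclear median between genotypes on CD (0.04) was 0.091 after rescaling and 0.0065 to 0.072 with each library left out, and the mitochondrial median (0.17) was -0.12 without normalization, -0.11 with centring on the library median, -0.074 after rescaling, -0.13 with centring on the nuclear members and 0.013 to 0.33 with each library left out. On HFD the nuclear median (0.02) was -0.0084 without normalization, 0.082 after rescaling, -0.045 with centring on the nuclear members and -0.0021 to 0.054 with each library left out, and the mitochondrial median (0) was 0.15 after rescaling. Between diets in the f/f libraries the nuclear median (0.11) was 0.033 without normalization, 0.059 with centring on the library median, 0.20 after rescaling and 0.077 with centring on the nuclear members. The mitochondrial median there (0.30) was 0.14 without normalization, 0.17 with centring on the library median, 0.19 with FPKM above 1 in all libraries, 0.19 without genes listed at 0 and 0.19 with centring on the nuclear members. In the LKO libraries the nuclear median (0.09) was -0.0040 without normalization, 0.024 with centring on the library median, 0.21 after rescaling, 0.015 with centring on the nuclear members and 0.043 to 0.13 with each library left out. The mitochondrial median there (0.12) was 0.30 without normalization, 0.32 with centring on the library median, 0.51 after rescaling, 0 with FPKM above 1 in all libraries, 0 without genes listed at 0, 0.32 with centring on the nuclear members and 0 to 0.30 with each library left out.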
